A study of Mus musculus with 6 samples.

Results

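The BCL2 family decides whether a cell keeps the outer membrane of its mitochondria intact. BCL2, BCL-XL (gene Bcl2l1) and MCL1 hold the membrane closed and keep the cell alive. BAX and BAK (gene Bak1) are the effectors that open pores in it, which lets cytochrome c out and starts the caspases. The BH3-only proteins are BIM (Bcl2l11), BID, PUMA (Bbc3), BAD and NOXA (Pmaip1). They report damage and stress to other members of the family through a short helix, the BH3 domain. Melanoma cells are known to lean on MCL1, BCL2 and BCL-XL for survival, and the transcription factors ATF4, CHOP (gene Ddit3), p53 and FOXO3 are known to act on BH3-only genes under stress.

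These 10 genes were selected by name from the 55487 genes of the count table, and 9 of them were expressed highly enough to be tested among 12669 genes. The cells were B16F10, a mouse melanoma line grown in culture, transduced with lentiviral shRNA and selected with puromycin. The control group (shCtr, n = 3) carried a scramble shRNA and is labelled wild type, and the depleted group (shOSGEP, n = 3) carried the hairpin numbered 2 against OSGEP and is labelled as a knockdown. No other hairpin was part of these libraries, and each library came from an infection of its own. OSGEP is the catalytic subunit of KEOPS, which places the t6A modification next to the anticodon of tRNAs that read codons beginning with A (ANN codons). The comparison asks how the mRNA of each BCL2 family gene stood after OSGEP depletion.

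The feature the family shares is the BH3 core, and its coding sequence is printed here for the 9 detected members because it is the surface through which the opposing classes bind one another. Each line gives 10 codons from the GENCODE M21 transcripts of GRCm38, 5′ to 3′ on the coding strand. The stretch starts 2 codons before a conserved leucine codon, and capitals mark the ANN codons, the class read by t6A-modified tRNAs.
Bcl2: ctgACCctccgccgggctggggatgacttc
Bcl2l1: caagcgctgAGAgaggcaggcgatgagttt
Mcl1: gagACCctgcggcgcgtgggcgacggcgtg
Bax: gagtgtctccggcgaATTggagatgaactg
Bak1: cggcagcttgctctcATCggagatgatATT
Bcl2l11: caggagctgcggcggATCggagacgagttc
Bid: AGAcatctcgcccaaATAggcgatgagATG
Bbc3: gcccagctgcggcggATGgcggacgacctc
Bad: cgtgagctccgaAGGATGAGCgatgagttt

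A leucine codon, any 3 codons, a glycine codon and an aspartate codon stood in this order exactly 1 time in each of 7 coding sequences. In Bbc3 the glycine codon was replaced by an alanine codon and in Bad by a serine codon, and these 2 were found only with a wider pattern. All 9 stretches lay within 1 coding exon. In the anti-apoptotic genes they were at chr1:106712578-106712607 on the minus strand (Bcl2, exon 1), chr2:152829700-152829729 on the minus strand (Bcl2l1, exon 2) and chr3:95659430-95659459 on the plus strand (Mcl1, exon 1). In the effectors they were at chr7:45466000-45466029 (Bax, exon 3) and chr17:27022534-27022563 (Bak1, exon 4), both on the minus strand. In the BH3-only genes they were at chr2:128147144-128147173 on the plus strand (Bcl2l11, exon 3), chr6:120897292-120897321 on the minus strand (Bid, exon 4), chr7:16313767-16313796 on the plus strand (Bbc3, exon 3) and chr19:6950786-6950815 on the plus strand (Bad, exon 3). Bid and Bad had 3 ANN codons among the 10, Bak1 had 2 and the other 6 genes had 1.

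Libraries held from 18915587 to 29487384 counts. For Osgep, the targeted gene, shCtr replicates 1, 2 and 3 gave 20.6, 58.6 and 21.8 CPM (TMM-scaled counts relative to library size) and shOSGEP gave 4.28, 0.542 and 5.52 CPM. Values per library are in this order throughout. The groups did not overlap, and the Log2FC was -3.29 (SE 0.876, unadjusted p = 0.00524, adjusted p = 1.00, edgeR's quasi-likelihood test). DESeq2 called Osgep, at -3.32 with an adjusted p of 0.0386, and limma-voom with quality weights did not, at -2.47 with 0.436. With a replicate block added, limma-voom gave -2.23 and an adjusted p of 1.45e-26. That setting called 1403 of all tested genes at an adjusted p under 0.05, whereas edgeR with the block called 0. All settings used the same 6 libraries, so they are not independent evidence. The 7 melanocyte markers examined were all detected. Their Log2FC was below 0 in each, from -1.26 for Pmel to -0.12 for Mitf, with 0 of 7 past the threshold of the study, and Dct alone was without overlap. In shOSGEP replicate 2, Pmel, Dct and Tyr lay -3.10, -2.62 and -2.75 from the mean of the other shOSGEP libraries on the log2 scale. That library also held the highest Atf4, Ddit3 and Bbc3 values given below, and the part of the marker shift in them was not tested. Of 18 markers of T cells, leukocytes, fibroblasts, endothelium and epithelium, 3 passed the filter on low counts (Cd68, Pdgfra and Pdgfrb, at most 15.3 CPM), and Cd3d, Cd3e, Cd8a, Ptprc, Adgre1, Dcn, Cdh5, Kdr and Epcam had 0 counts in all 6 libraries. Pdgfrb, a fibroblast marker, was at 8.12, 4.42 and 9.18 CPM in the controls and between 11.4 and 15.3 CPM after OSGEP depletion, with the fibroblast markers Dcn at 0 and Lum at 1 count or fewer, and its part in the results was not tested. shCtr replicate 2 stood apart from the other libraries. Its TMM factor was 0.690 against 1.04 to 1.14, its share of mitochondrial transcripts was 0.585% against 1.30% to 4.75%, and transcripts over 60% GC lay a median of 1.44 above the mean of the other shCtr libraries on the log2 scale, with those under 40% GC at -3.18. shOSGEP replicate 2 differed from the other shOSGEP libraries in the same direction for transcripts under 40% GC (-1.25). In 95.4% of all tested genes, and in 9 of 9 BCL2 family genes, the highest or the lowest library was a replicate 2.

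No detected member was called higher or lower in shOSGEP than in shCtr. The study's threshold combines an unadjusted p under 0.05 with a Log2FC above 0.5 or below -0.5, and 0 of 9 members passed it, against 2.02% of all tested genes. At an adjusted p under 0.05 edgeR called 0 members and 0% of all genes, and 0 of 9 members against 2.02% of genes had an unadjusted p under 0.05. The smallest unadjusted p of a member was 0.162, for Bak1. DESeq2 called 0 members at either threshold. The groups were free of overlap in 0 of 9 members and in 6.36% of all tested genes. With 9 members, counts of 0 are near these shares and do not set the family apart. The Log2FC was above 0 in 4 members and below 0 in 5, with a median of -0.06 against -0.03 over all tested genes. RNA was measured in bulk, so a lower level per cell and fewer cells with the transcript cannot be told apart.

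**Figure D1:**
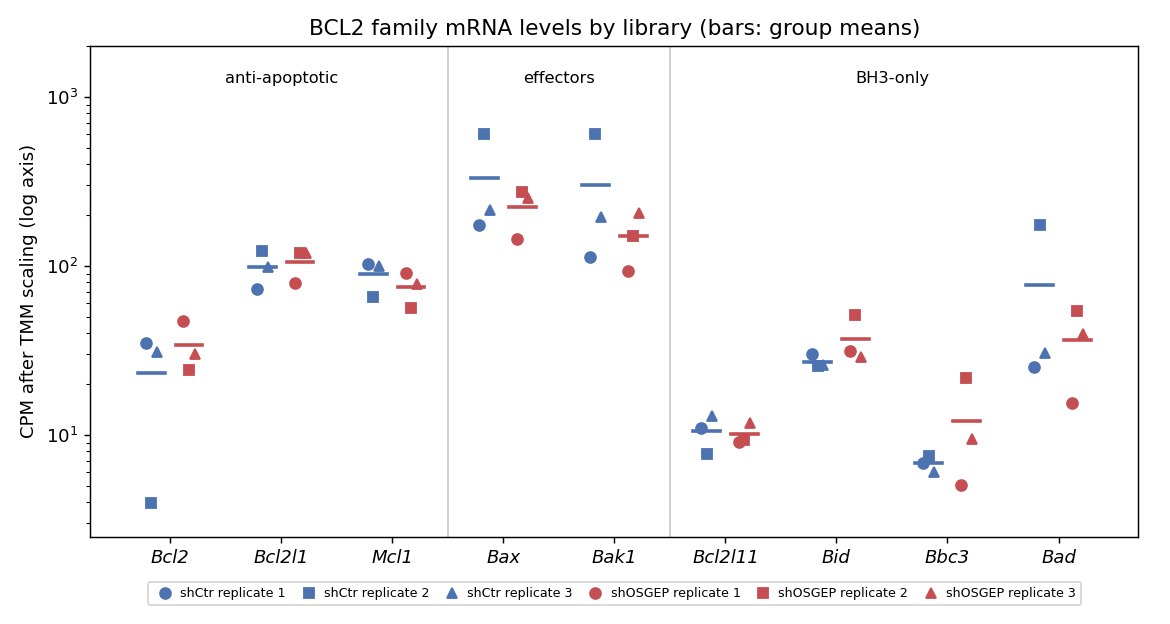
Level of each detected BCL2 family gene in each library, in CPM after TMM scaling on a log axis; points are single libraries (blue shCtr, red shOSGEP; circle, square and triangle for replicates 1, 2 and 3) and bars are group means. The points of the groups overlap for every gene, and shCtr replicate 2 (blue squares) lies at 3.93 CPM for Bcl2, below all other libraries, and at 602.3, 599 and 176 CPM for Bax, Bak1 and Bad, above all others.

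Among the anti-apoptotic genes, Bcl2l1 and Mcl1 were the abundant ones and Bcl2 the most uneven. Bcl2l1 (ENSMUSG00000007659, chr2:152780668-152831728, minus strand) encodes BCL-XL. The shCtr libraries gave 72.6, 123 and 99.0 CPM for it, and the shOSGEP libraries gave 78.7, 119 and 119 CPM. Replicate 1 was the lowest library of each group, and the groups spanned nearly the same range. On average shCtr had 98.2 ± 25.2 CPM (SD, n = 3), compared with 105.5 ± 23.2 CPM (SD, n = 3) for shOSGEP. The Log2FC was 0.10 (SE 0.403, unadjusted p = 0.803; exact permutation test, two-sided p = 0.7), with a 95% interval from -0.82 to 1.03. Without shCtr replicate 1 its sign turned, to -0.07.

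Mcl1 (ENSMUSG00000038612, chr3:95658788-95663176, plus strand) encodes a short-lived protein that cells lose quickly when translation slows. Its mRNA stood at 103, 65.2 and 99.7 CPM in the controls, compared with 90.5, 56.1 and 77.7 CPM after OSGEP depletion. In each replicate number the shOSGEP library was the lower one, with log2 ratios of -0.18, -0.22 and -0.36, although shOSGEP replicates 1 and 3 lay above shCtr replicate 2. The Log2FC was -0.26 (SE 0.405, unadjusted p = 0.546; exact permutation test, two-sided p = 0.5), with an interval from -1.18 to 0.67. Bid was the only other member with the same sign in all 3 same-numbered comparisons, so that 2 of 9 members had this property against 34.8% of all tested genes (17.2% lower in all 3, like Mcl1, and 17.6% higher, like Bid). Over the 19 alternative settings the Log2FC of Mcl1 stayed below 0, between -0.44 and -0.07.

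Bcl2 (ENSMUSG00000057329, chr1:106538178-106714274, minus strand), the founding member of the family, had 34.8, 3.93 and 30.9 CPM in the controls, compared with 47.4, 24.2 and 30.2 CPM after OSGEP depletion. Only shCtr replicate 2, with 80 counts, was far from the rest, which had between 625 and 1018 counts. The Log2FC was 0.55 (SE 0.735, unadjusted p = 0.478; exact permutation test, two-sided p = 0.6), and without shCtr replicate 2 it was 0.04. Bcl2 also had the lowest transcript GC content of the 9 genes, 46.3%, and lay 2.91 below the other shCtr libraries on the log2 scale in the library where low-GC transcripts were low. Whether transcript composition set this value was not tested.

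The effectors had the highest levels per length of the family. Bax (ENSMUSG00000003873, chr7:45461697-45466898, minus strand) encodes the cytosolic effector that moves to mitochondria on activation. It reached 175, 602.3 and 213 CPM in the control libraries, while the depleted libraries had 143, 272 and 252 CPM. All 3 shOSGEP libraries lay below shCtr replicate 2, and 2 of them lay above shCtr replicates 1 and 3. The Log2FC was -0.57 (SE 0.571, unadjusted p = 0.348; exact permutation test, two-sided p = 0.7), and it turned to 0.20 without shCtr replicate 2 and to 0.03 without both replicate 2 libraries.

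Bak1 (ENSMUSG00000057789, chr17:27019810-27029009, minus strand) encodes the effector that resides in the outer mitochondrial membrane. Control libraries had 112, 599 and 193 CPM of it, and depleted libraries had 93.4, 150.4 and 205 CPM. Apart from shCtr replicate 2 the libraries of the groups spanned overlapping ranges. The Log2FC was -1.01 (SE 0.659, unadjusted p = 0.162; exact permutation test, two-sided p = 0.5), with an interval from -2.52 to 0.50, and was -0.03 without shCtr replicate 2. Without shCtr replicate 1 Bak1 passed the threshold of the study, at -1.40 and an unadjusted p of 0.0484. On the GRCm38 annotation, 20.4% of the 31-base words of Bak1 transcripts also occur in other transcripts, mainly those of Ggnbp1 on the opposite strand, and the library kit was not stated to keep strand.

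The BH3-only genes showed no common direction. Bcl2l11 (ENSMUSG00000027381, chr2:128126038-128162547, plus strand), which encodes BIM, a direct activator of BAX and BAK, had 10.96, 7.67 and 12.9 CPM in the controls, compared with 9.12, 9.38 and 11.8 CPM after OSGEP depletion. Of the 9 members it had the smallest ratio of highest to lowest library, 1.68-fold, and Bcl2 had the largest, 12.04-fold. The Log2FC was -0.06 (SE 0.442, unadjusted p = 0.898; exact permutation test, two-sided p = 1.0), with an interval from -1.07 to 0.96, and its sign turned in 5 of 19 alternatives.

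Bid (ENSMUSG00000004446, chr6:120891930-120916853, minus strand) encodes the protein that caspase-8 cuts to link death receptors to mitochondria. It had 30, 25.5 and 25.7 CPM in the controls, compared with 31.3, 50.9 and 28.8 CPM after OSGEP depletion. shOSGEP replicate 2 was the high library, while shOSGEP replicate 3 lay below shCtr replicate 1. The log2 ratios of same-numbered libraries were 0.06, 0.98 and 0.16, and the Log2FC was 0.45 (SE 0.413, unadjusted p = 0.307; exact permutation test, two-sided p = 0.2). It remained above 0 under all 19 alternatives, between 0.11 and 0.64. Of its 31-base words, 16.9% were shared with other transcripts, mainly with Bcl2l13 on the opposite strand.

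Bbc3 (ENSMUSG00000002083, chr7:16308393-16318205, plus strand) encodes PUMA, which binds all anti-apoptotic members and is a known target of p53 and CHOP. Its level was 6.80, 7.47 and 6.04 CPM in the controls (160, 152 and 131 counts), compared with 5.02, 21.6 and 9.50 CPM after OSGEP depletion (108, 557 and 224 counts). One shOSGEP library lay below all shCtr libraries and 2 lay above them. On average shCtr had 6.77 ± 0.716 CPM (SD, n = 3), compared with 12.04 ± 8.57 CPM (SD, n = 3) for shOSGEP. The Log2FC was 0.83 (SE 0.595, unadjusted p = 0.199; exact permutation test, two-sided p = 0.5), with an interval from -0.53 to 2.19, and was 0.19 without both replicate 2 libraries.

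Bad (ENSMUSG00000024959, chr19:6941861-6951899, plus strand) encodes the BH3-only protein that growth factor signalling holds inactive by phosphorylation. Control libraries gave 25.3, 176 and 30.7 CPM, and depleted libraries gave 15.5, 54.0 and 39.4 CPM. In both groups replicate 2 was the highest and replicate 1 the lowest library. The Log2FC was -1.09 (SE 0.822, unadjusted p = 0.221; exact permutation test, two-sided p = 0.7), and it turned to 0.38 without shCtr replicate 2. Of its 31-base words 18.4% were shared, mainly with Gpr137 on the opposite strand.

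Pmaip1 (ENSMUSG00000024521), which encodes NOXA, the BH3-only partner of MCL1, was listed at 0 counts in all 6 libraries. With a floor of 3 counts this allows up to 0.116 to 0.147 CPM per library if its reads could be assigned to the gene, and whether the 0 arose in the cells or in the quantification cannot be told from the table. No fold change was computed.

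**Figure D2:**
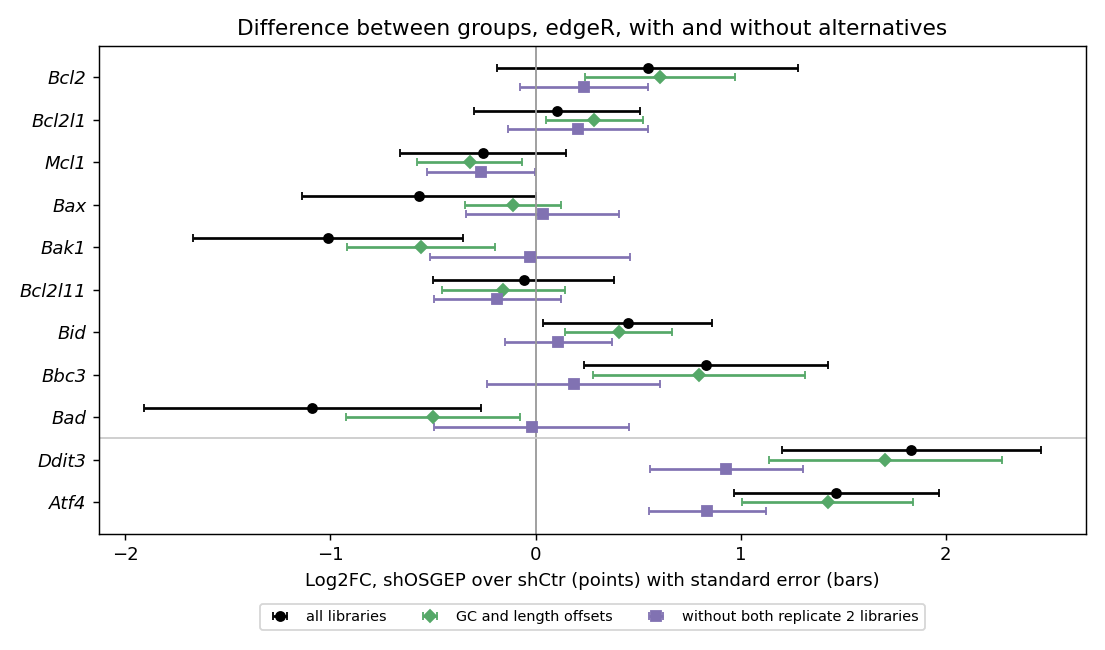
Log2FC of shOSGEP over shCtr (points) with standard error (bars) for the 9 detected BCL2 family genes and, under the line, for Ddit3 and Atf4, in edgeR with all libraries (black), with offsets for transcript GC content and length (green) and without both replicate 2 libraries (purple). For Bax, Bak1 and Bad the points move from -0.57, -1.01 and -1.09 to 0.03, -0.03 and -0.02 without the replicate 2 libraries, whereas Ddit3 and Atf4 remain above 0.

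The size of the differences moved with replicate 2 and with transcript composition. Without both replicate 2 libraries the Log2FC of the 9 members lay between -0.27 (Mcl1) and 0.24 (Bcl2). With offsets for GC content and length all 9 kept the sign they had without offsets, at 0.61 (SE 0.366) for Bcl2, 0.80 (SE 0.517) for Bbc3, -0.56 (SE 0.360) for Bak1, -0.50 (SE 0.425) for Bad and between -0.32 and 0.41 for the rest. Once the trend with GC content and length was removed from each library, the log2 range over the 6 libraries went from 2.07 to 0.43 for Bax, from 3.56 to 1.71 for Bcl2, from 3.49 to 1.87 for Bad and from 2.68 to 1.46 for Bak1. Over all tested genes the median range went from 1.83 to 1.20. For Bcl2l1, Mcl1, Bcl2l11, Bid and Bbc3 the range was 0.76, 0.87, 0.74, 0.99 and 2.08 before and 0.65, 0.86, 0.78, 1.01 and 2.58 after. The trend was estimated from the same libraries, so a difference between groups that follows GC content would be removed with it.

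**Figure D3:**
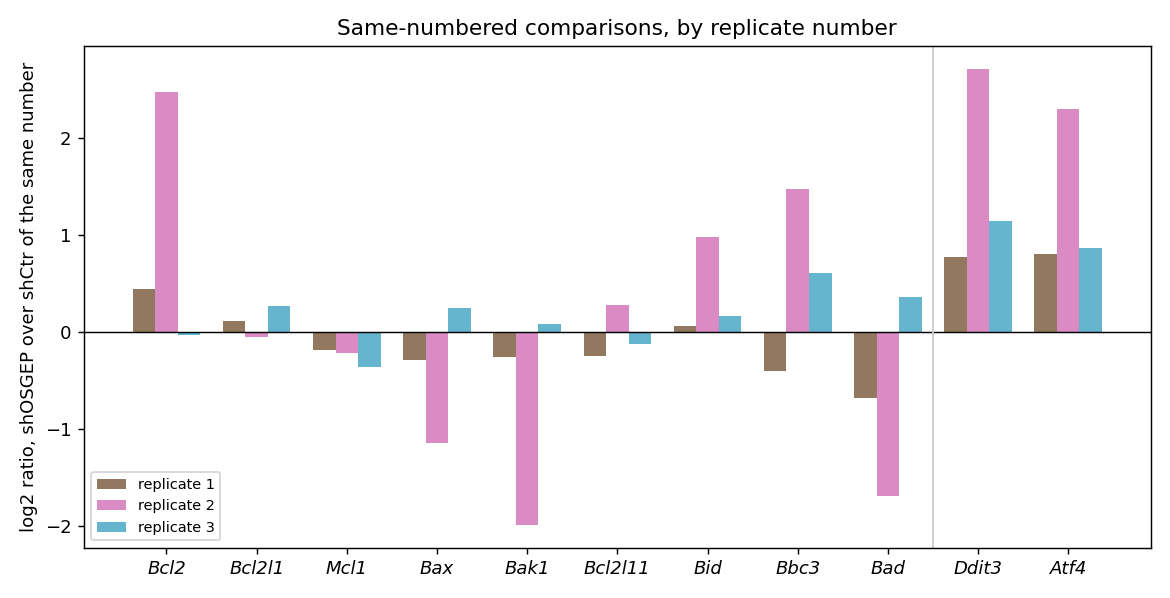
Log2 ratio of the shOSGEP library to the shCtr library of the same number, computed on CPM + 0.5, for replicates 1, 2 and 3 of each gene. Mcl1 is below 0 and Bid above 0 in all 3, the other 7 members change sign between replicates, and replicate 2 gives the longest bar for Bcl2 (2.48), Bak1 (-1.99), Bad (-1.69), Bbc3 (1.47), Bax (-1.14), Bid (0.98) and Bcl2l11 (0.27).

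The closest match of each member across the 6 libraries is given as a description, because the libraries share the composition differences above. Each match is the highest correlation with any other tested member, so a match exists for every member. No correlations among other genes were computed as a background. The level of Bax on the log2 scale was most like that of Bad (Pearson r = 0.995, 6 libraries), and that of Bak1 most like Bax (r = 0.958). Bid and Bbc3 were each other's closest match (r = 0.834), as were Bcl2 and Bcl2l11 (r = 0.651). Bcl2l1 was most like Bax (r = 0.783) and Mcl1 most like Bcl2l11 (r = 0.605). Bbc3, Bid and Bad were also higher in shOSGEP replicate 2 than in the mean of the other shOSGEP libraries, by 1.57, 0.75 and 1.11 on the log2 scale. So were Bax, Bcl2l1 and Bak1, by 0.52, 0.30 and 0.12, whereas Bcl2, Mcl1 and Bcl2l11 lay at -0.63, -0.58 and -0.14.

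Levels were compared between genes as CPM per kilobase of the longest protein-coding transcript. The mean over 6 libraries was 251 for Bax, 94.5 for Bak1, 39.7 for Bcl2l1, 37.0 for Bad, 24.0 for Mcl1, 14.6 for Bid, 5.18 for Bbc3, 3.97 for Bcl2 and 2.04 for Bcl2l11. Bax was above Bak1, Bak1 above Bcl2l1 and Bid above Bbc3 in 6 of 6 libraries, although the ranges over libraries overlapped for every neighbouring pair in this order. Bad was above Mcl1, and Bbc3 above Bcl2, in only 3 of 6 libraries, so the order within these pairs was not fixed. With the union of exons as length, Bcl2l1 was level with Bad, both at 22.2, below Mcl1 at 24.0.

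Summed by role, the anti-apoptotic mRNA varied least of the 3 roles over the libraries. Bcl2, Bcl2l1 and Mcl1 together gave 63.2, 67.5 and 72.004 CPM per kilobase in shCtr and 63.7, 66.1 and 73.2 in shOSGEP, or 67.6 ± 4.42 and 67.7 ± 4.94 (SD, n = 3 each). The effectors summed to 206, 799 and 274 in shCtr and to 169, 311 and 315 in shOSGEP. The detected BH3-only genes summed to 36.1, 132 and 37.6 in shCtr and to 29.0, 72.2 and 46.4 in shOSGEP. Anti-apoptotic mRNA was therefore 20.7%, 6.77% and 18.8% of the summed family level in shCtr and 24.3%, 14.7% and 16.9% in shOSGEP, with shCtr replicate 2 the low library. The log2 ratio of anti-apoptotic to all pro-apoptotic mRNA was -2.61 ± 1.02 in shCtr and -2.16 ± 0.465 in shOSGEP (SD, n = 3 each), a difference of 0.45 that turned to -0.13 without shCtr replicate 2. This balance is a score over the members and was not tested.

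**Figure D4:**
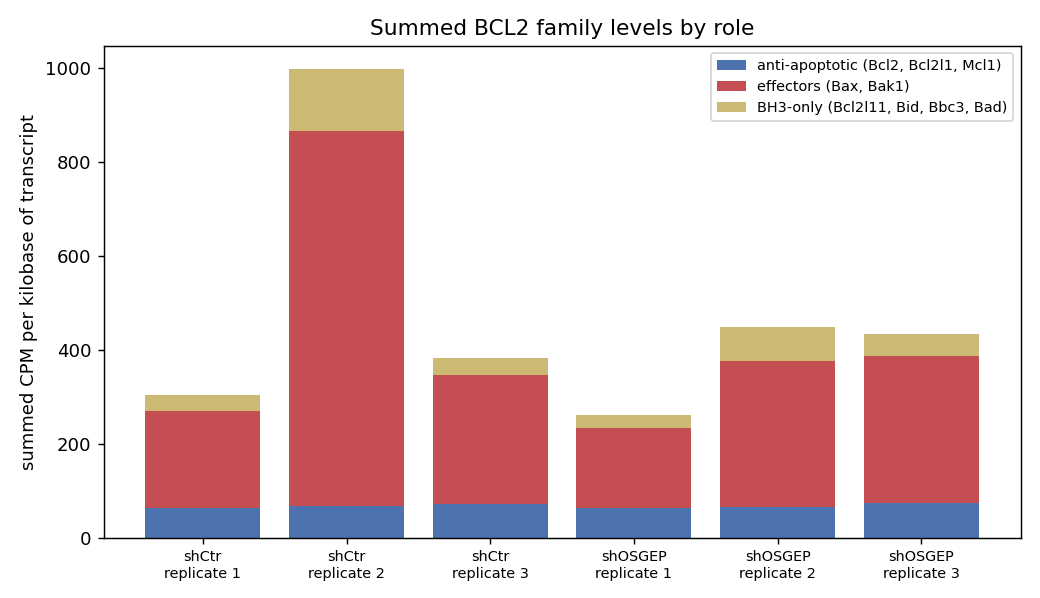
Summed level of anti-apoptotic, effector and BH3-only genes in each library, in CPM per kilobase of transcript, stacked from 0. The anti-apoptotic part is between 63.2 and 73.2 in all 6 libraries, whereas the effector part is 799 in shCtr replicate 2 and between 169 and 315 in the others.

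The genes around the family were read from 5 lists. Of 15 other BCL2 family genes 6 were tested, 3 with a Log2FC above 0 and 3 below, with a median of -0.02 and 0 past the threshold of the study. The smallest p values belonged to Bcl2l2, which encodes the anti-apoptotic BCL-W (Log2FC 0.62, unadjusted p = 0.198), to the mitophagy receptor gene Bnip3 (0.83, unadjusted p = 0.239) and to Bcl2l12 (-0.62, unadjusted p = 0.273). Each of these 3 shares sequence with an overlapping gene or another locus, over 12.8%, 57.0% and 28.1% of its 31-base words. The mouse copies of the gene for the anti-apoptotic protein A1 were nearly silent, with 0 counts for Bcl2a1a and Bcl2a1d and 1 to 7 for Bcl2a1b. These copies are close to identical, so reads may have been split among them.

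Downstream of the family, all 21 genes of the mitochondrial death pathway were tested. The Log2FC was below 0 in 15 of them and above 0 in 6, with a median of -0.34 against -0.03 over all genes, and 1 passed the threshold of the study, against 0.426% of all genes in that direction. This was Birc5, which encodes survivin, a mitotic protein of the inhibitor of apoptosis family. It had 129.9, 240.1 and 134.7 CPM in the controls, compared with 83.9, 52.7 and 99.5 CPM after OSGEP depletion, without overlap. It was lower in shOSGEP, with a Log2FC of -1.10 (SE 0.449, unadjusted p = 0.0395, adjusted p = 1.00). The call was lost, among others, with the replicate block (-1.07, unadjusted p = 0.0510), with no filter on low counts (-1.08, unadjusted p = 0.0525) and without any single library other than shCtr replicate 1 (unadjusted p from 0.0561 to 0.119), and it was -0.53 without both replicate 2 libraries. Birc5 was called in limma-voom with quality weights and a replicate block, at -0.60 with an adjusted p of 0.000656. That setting called 1403 of all tested genes. Vdac2, which encodes an outer membrane channel that binds BAK, was also without overlap, at 226.6, 308 and 240.7 CPM against 157.3, 128.9 and 195.5 CPM (Log2FC -0.69, unadjusted p = 0.112), as were 2.87% of all genes in that direction. Dffa, which encodes the inhibitor of the apoptotic DNase, was at -0.66 (unadjusted p = 0.208).

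In the death receptor pathway, 7 of 9 genes were tested, with 3 above 0, 4 below 0, a median of -0.22 and 0 past the threshold. The adaptor genes Tradd (-0.63, unadjusted p = 0.387), Fadd (-0.45, unadjusted p = 0.408) and Traf2 (-0.41, unadjusted p = 0.438) had the smallest p values. Fas, singled out after its values were seen, was below the filter on low counts, with 6, 2 and 1 counts in shCtr and 23, 85 and 6 in shOSGEP. It passed the threshold of the study with no filter on low counts and in 5 of 9 leave-outs, which let it through the filter. In these leave-outs it met the filter only through shOSGEP replicates 1 and 2, its highest libraries (1.07 and 3.29 CPM). Because the gene was picked and let in by its high values, these calls cannot decide whether it differs between groups. Tnfrsf10b, which encodes the receptor of TRAIL, had at most 11 counts in any library.

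Among 11 tested transcription factors known to act on the family, 6 were above 0 and 5 below, with a median of 0.09, and 2 passed the threshold, both higher, against 1.59% of all genes in that direction. Atf4, the main transcription factor of the integrated stress response, had 280, 245 and 263 CPM in the controls, compared with 489, 1210 and 481 CPM after OSGEP depletion. Ddit3, which encodes CHOP and is a target of ATF4, had 32.4, 26.7 and 17.98 CPM in the controls, compared with 55.5, 178 and 40.4 CPM after OSGEP depletion. Both were higher in shOSGEP, without overlap between groups, as were 3.49% of all tested genes in that direction. The Log2FC was 1.47 for Atf4 (SE 0.4999, unadjusted p = 0.0182) and 1.83 for Ddit3 (SE 0.632, unadjusted p = 0.0192), each with an adjusted p of 1.00. The setting of limma-voom with quality weights and a replicate block called 1403 of all tested genes at an adjusted p under 0.05. In it the Log2FC was 0.85 for Atf4 (adjusted p = 1.01e-06) and 0.92 for Ddit3 (adjusted p = 1.10e-07). Without shOSGEP replicate 2 they were 0.90 (unadjusted p = 0.0562) and 0.92 (unadjusted p = 0.0819), without shCtr replicate 3 they were 1.47 (unadjusted p = 0.0617) and 1.63 (unadjusted p = 0.0707), and without both replicate 3 libraries 1.69 (unadjusted p = 0.0956) and 1.98 (unadjusted p = 0.0546), all past the effect limit but not the p limit. In the same-numbered libraries the log2 ratios of Ddit3 were 0.77, 2.72 and 1.15. Trp53 (Log2FC -0.38, unadjusted p = 0.459) and Foxo3 (0.09, unadjusted p = 0.852) were not called, and Jun was at -0.59 (unadjusted p = 0.178), without overlap.

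The last list held 20 genes for the turnover and binding partners of the family, such as the ubiquitin ligases of MCL1 and the 14-3-3 proteins that hold BAD. Of 18 tested, 8 were above 0 and 10 below, with a median of -0.01 and 0 past the threshold. Fbxw7 (0.88, unadjusted p = 0.273) and Marchf5 (0.48, unadjusted p = 0.286), both ubiquitin ligase genes acting on MCL1 or its partners, and Dynll2, which encodes a dynein light chain (-0.40, unadjusted p = 0.398), had the smallest p values.

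Promoter windows from 250 bases before to 50 after the start were given by RefSeq (GRCm38.p6) for 9 members, 15 windows in all. They were searched on both strands for 4 motifs. Pmaip1 had no window, so the counts below do not cover it. The ATF4 and C/EBP composite TGATGNAA was in 0 member windows and in 3.97% of all 32851 windows. The CRE motif TGACGTCA was in 0 member windows and 1.79% of all, and the interferon-response-like GAAANNGAA in 0 and 8.56%. The FOXO motif GTAAACA was in 2 member windows and 3.65% of all. The matches are shown with the motif in capitals, in plus-strand letters, because both lie in BH3-only genes.
Bcl2l11: aagacactaggGTAAACAcgccggggtgg
Bbc3: tctggcgggttTGTTTACaaacaatgggg

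The match in Bcl2l11 lay at chr2:128125800-128125828, 227 bases before the start, and that in Bbc3 at chr7:16310083-16310111, 167 bases before a start. The Bbc3 window holds the motif on the minus strand. A match shows only that the letters are present, and binding was not measured in these libraries. Foxo3 mRNA, given above, did not pass the threshold.

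The members differed in how much of their coding sequence consists of ANN codons, a property of the sequence rather than of these libraries. The share was 11.4% in Bbc3 (22 of 193 codons), and 0.390% of 21535 coding genes have a lower share. It was 18.1% in Mcl1, 20.1% in Bak1, 22.4% in Bcl2l11, 22.5% in Bcl2, 24.0% in Bad, 25.8% in Bcl2l1, 26.6% in Bax, 29.2% in Bid and 34.0% in Pmaip1. The median over coding genes was 27.7%, so 8 of 10 members lay below it. Neither translation nor protein was measured in these libraries.

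**Figure D5:**
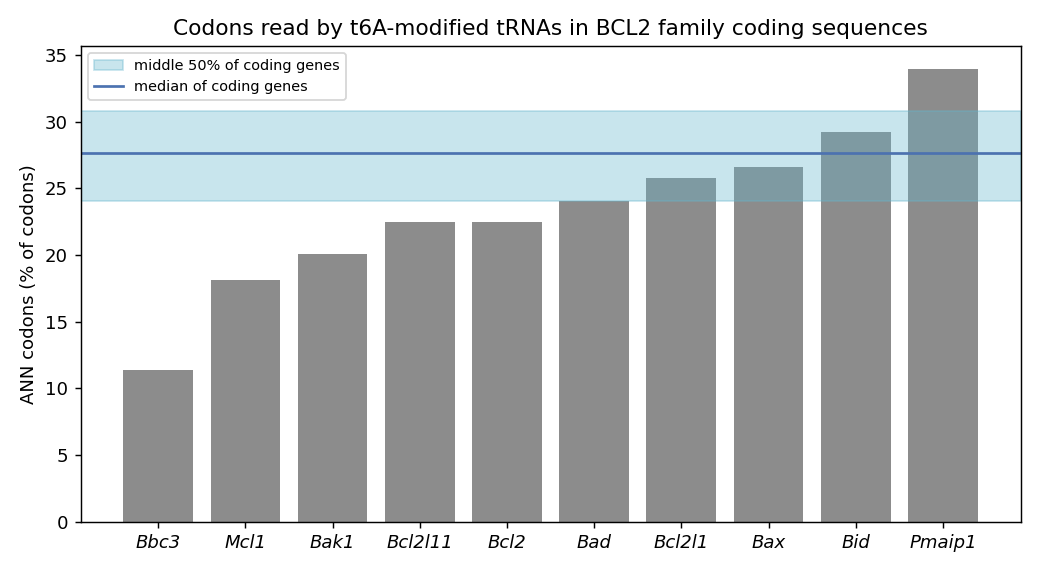
Share of ANN codons in the coding sequence of each BCL2 family gene, in percent of codons, ordered from low to high; the line is the median of coding genes (27.7%) and the band their middle 50%, from 24.0% to 30.8%. Bbc3 is lowest at 11.4% and Pmaip1 highest at 34.0%.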

How the data were processed

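PolyA RNA of 6 B16F10 cultures was sequenced in paired reads. The authors trimmed reads with TrimGalore, aligned them to GRCm38 with STAR 2.6.1d and quantified genes with Salmon 1.4.0. The deposited values are estimated counts per gene, written as whole numbers, with no normalization or filter. They cannot separate isoforms such as those of Mcl1, Bcl2l1 and Bcl2l11.

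The labels gave the group and the replicate number of each library. The 10 members, the gene lists, the tests and the alternatives were chosen with earlier results of these data known. Genes were kept by filterByExpr (minimum count 10, minimum total 15), scaled by TMM and tested without a block, two-sided, with edgeR 4.0.16 in R 4.3.3, with Benjamini-Hochberg adjustment over 12669 genes. Unless a p is called adjusted or exact, it is the unadjusted p of this test. The threshold stated by the study was used beside the adjusted p. Single values were compared by an exact permutation test, whose smallest two-sided p with 3 against 3 is 0.1. Per-library ratios used CPM + 0.5. A floor of 3 counts was used for undetected genes and covers counting error only.

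Named genes were Osgep, the members, in each of the 5 lists the genes with an unadjusted p under 0.05, filled up to 3 genes by the next smallest p, and Trp53, Ddit3, Atf4 and Foxo3. Ddit3 stands on 2 identifiers, and the one with the longer transcript was used. Positions, lengths and GC content came from GENCODE M21. The BH3 pattern was planned for RefSeq proteins and was searched in GENCODE coding sequences instead.

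Pairing was checked by correlating deviations from group means of same-numbered libraries across genes. These were 0.836, 0.575 and 0.204 for replicates 1, 2 and 3, all above the limit of 0.1. The highest value between different numbers was 0.540, for shCtr replicate 3 with shOSGEP replicate 1, above that of replicate 3. Pairing by number is therefore uncertain for replicate 3, and the main test and the permutation test used no pairing. The numbers and a shared code in the library names come from the labels, which do not say what they mark. Alternatives were DESeq2 1.42.0, limma-voom (limma 3.58.1) with quality weights, other scalings and filters, a replicate block, offsets for GC content and length, and leaving out libraries. Libraries of one group came from separate infections of one line.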

Additional observations from a re-analysis of the deposited data

How the results depend on the processing

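No member reached an adjusted p under 0.05 under any of the 19 alternatives. The smallest was 0.114 for Bad and 0.140 for Bcl2, both in limma-voom with quality weights and a replicate block (Log2FC -0.38 and 0.34). The unadjusted p of Bad and Bcl2 in that setting was 0.0186 and 0.0251, past the p limit of the study but not the effect limit. The sign of Bcl2, Mcl1, Bak1 and Bid held under all 19. It turned on leaving out libraries for Bcl2l1 (from -0.071 to 0.30, negative without shCtr replicate 1), Bax (from -0.91 to 0.20, positive without shCtr replicate 2 or both replicate 2 libraries), Bad (from -1.54 to 0.38, positive without shCtr replicate 2) and Bcl2l11 (from -0.24 to 0.12, positive in 4 leave-outs). Bcl2l11 also turned with upper-quartile scaling (0.041), which moved the median of all genes from -0.03 to 0.07. Bbc3 turned with limma-voom, weights and block (-0.050). Leaving out libraries gave 0 to 1 members past the threshold of the study (Bak1, without shCtr replicate 1), 67 to 453 of all genes and 0 to 4 genes of the 5 lists, against 0, 256 and 3. Members at that threshold stayed at 0 under the other alternatives. All genes numbered 560 with limma-voom and weights, 599 without a filter, 692 with GC and length offsets, 869 with these offsets and the block, and 1442 with limma-voom, weights and block. The last 2 settings each gave 7 list genes, among them Atf4 and Ddit3 in both, Apaf1, Dffa and Vdac2 with offsets and block, and Birc5, Bmf and Jun with limma-voom, weights and block. At an adjusted p under 0.05, DESeq2 called 14 genes, limma-voom with weights 3, and with the block 1403, against 0. The replicate block in edgeR gave 373 genes (2.94%), 0 members and 2 list genes, and changed no call among the named genes other than Birc5. The difference in balance ranged from -0.13 to 0.79 without single libraries. Levels per kilobase with the union of exons as length were 22.2 for Bcl2l1, 1.28 for Bcl2l11 and 9.02 for Bid. The causes of these shifts were not tested. With a biological coefficient of variation of 0.5665 and 3 libraries per group, even the interval of Bcl2l1, the member with the smallest SE, ran from -0.82 to 1.03.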
